A study of Mus musculus with 5 samples.

Results

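The proteasome genes described here are the 50 protein-coding genes, of 29267 genes measured, whose symbol begins with Psma, Psmb, Psmc, Psmd, Psme, Psmf or Psmg followed by a digit. They were chosen by name alone. Expression was read by RNA sequencing in fibroblasts of ICR mouse embryos (connective tissue cells) under reprogramming, that is, on the way to pluripotency. There were 5 libraries, 1 in each group. At day 4 of reprogramming a Flag library, from control cells expressing only the Flag tag as far as the labels say, was set against CypD-expressing cells, CypD being cyclophilin D, a mitochondrial protein made from Ppif that promotes opening of the permeability transition pore. The day-8 libraries were an untreated control, mastoparan (a peptide of wasp venom) and paraquat (a herbicide that generates superoxide). The genotype labels call all 3 day-8 libraries CypD-expressing as well, while the description of the series does not. The reprogramming factors, the vectors, the doses and the number of cultures behind each library are not stated in the labels. With 1 library in each group no difference could be tested, and every interval below covers counting error only.

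The proteasome degrades proteins that carry ubiquitin chains. Its core particle is a barrel of stacked alpha and beta rings with the proteolytic sites inside, and its regulatory particle, made of ATPases and non-ATPase subunits, recognises, unfolds and feeds in the substrates. Cytokine signals can replace the catalytic beta subunits with the immunoproteasome subunits Psmb8, Psmb9 and Psmb10, which favour peptides for antigen presentation. The transcription factor NRF1 (gene Nfe2l1) is known in mammalian cells for raising the subunit genes together when proteasome activity falls.

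Of the 50 genes, 8 encode the alpha ring (the testis form Psma8 among them), 7 the constitutive beta ring, 4 the immunoproteasome and thymic beta subunits, 6 the ATPases and 11 the other subunits of the regulatory particle. A further 3 encode chaperones of the base of the regulatory particle (Psmd5, Psmd9, Psmd10), 6 encode activators and an inhibitor (Psme1, Psme2, Psme2b, Psme3, Psme4, Psmf1) and 4 encode chaperones of the core particle (Psmg1 to Psmg4). The symbol rule also took Psmc3ip, which is a meiotic recombination factor and no subunit. It is counted in none of these roles, but counts over the 47 tested genes below include it. The 31 constitutive subunits are the alpha ring without Psma8, the constitutive beta ring (together 14 core subunits), the ATPases and the other regulatory subunits (together 17). A mean over the libraries of a day of 1 CPM (counts for each 1000000 of the scaled library) or more was met by 47 of the 50 genes on either day. Psmb11 and Psme2b missed it on both days, Psmb9 at day 4 and Psma8 at day 8.

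The libraries held 2497736 (Flag), 3426702 (CypD), 3016439 (control), 2834186 (mastoparan) and 2426015 (paraquat) expected counts. Ppif was at 761 CPM in the CypD library and at 44.2 CPM in the Flag library. In the day-8 libraries it was at 29.2 (control), 33.3 (mastoparan) and 34.2 CPM (paraquat), below the Flag library, so the CypD label of these libraries was not matched by Ppif RNA. All 10 fibroblast markers were detected in every library, at a summed 6558 to 7056 CPM, and the 6 pluripotency markers summed to at most 10.4 CPM.

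Promoter sequences are shown because 1 motif was found in regulatory but not in core subunit promoters, and these 2 groups of subunits are followed separately below. RefSeq promoters of GRCm38.p6, from 250 bases before to 50 bases after the gene start, were matched for 42 of the 50 genes. The Ets-type motif CCGGAAG, searched on both strands, was found in 9 of 14 regulatory subunit promoters (64.3%) and in 0 of 11 core subunit promoters. It was found in 9.12% of all 27025 promoters of the same length. The CCAAT box was found in 6 of 11 core promoters (54.5%), in 4 of 14 regulatory promoters (28.6%) and in 37.9% of all promoters. The core of the antioxidant response element, TGACNNNGC, to which NRF1 can bind, was found in 4 of the 25 constitutive promoters (16.0%) and in 12.5% of all promoters. No 2 motifs overlapped in these genes. Each sequence below is the 100 bases before the gene start, 5′ to 3′ on the strand of the gene, with capitals marking a motif. Psmc2 (chr5:21785175-21785274, plus strand), Psmd2 (chr16:20651552-20651651, plus) and Psmd6 (chr14:14120946-14121045, minus) show the Ets-type motif of regulatory subunits, and Psmc2 also holds a CCAAT box. Psmb5 (chr14:54617996-54618095, minus) and Psmb6 (chr11:70525257-70525356, plus), 2 catalytic core subunits, show the antioxidant response core, and Psma2 (chr13:14613142-14613241, plus) of the alpha ring shows a CCAAT box.
Psmc2: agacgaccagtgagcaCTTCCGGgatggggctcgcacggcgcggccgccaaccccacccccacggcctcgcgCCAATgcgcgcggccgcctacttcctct
Psmd2: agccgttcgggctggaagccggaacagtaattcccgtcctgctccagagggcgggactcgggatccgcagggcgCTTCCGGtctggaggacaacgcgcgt
Psmd6: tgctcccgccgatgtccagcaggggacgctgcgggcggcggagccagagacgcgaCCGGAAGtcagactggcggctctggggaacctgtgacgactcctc
Psmb5: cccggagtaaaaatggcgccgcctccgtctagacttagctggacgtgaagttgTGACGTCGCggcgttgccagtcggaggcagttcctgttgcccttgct
Psmb6: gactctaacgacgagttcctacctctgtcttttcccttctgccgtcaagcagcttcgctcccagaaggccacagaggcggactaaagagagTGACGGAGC
Psma2: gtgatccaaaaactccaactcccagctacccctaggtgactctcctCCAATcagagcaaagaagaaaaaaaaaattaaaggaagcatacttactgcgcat
A match of letters is a description and was not tested for binding.

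Measured per length as deposited TPM, the core subunits stood above the regulatory subunits in every library. The median of the 14 core subunits lay between 339 and 446 TPM, and that of the 17 regulatory subunits between 149 and 221 TPM. The ratio of the 2 medians was 1.94 in the Flag library, 2.10 in CypD, 2.18 in the control, 2.43 in mastoparan and 2.58 in paraquat. Psmb4, a beta ring subunit, had the highest level of all members in every library, at 769 (Flag), 875 (CypD), 736 (control), 743 (mastoparan) and 871 TPM (paraquat). Psmd1, the large scaffold subunit of the regulatory particle, had the lowest level of the constitutive subunits in every library, at 89.3, 89.1, 58.3, 53.9 and 42.5 TPM in the same order. All 31 constitutive subunits thus lay within 8.61-fold of one another in the Flag library and within 20.5-fold in the paraquat library. Psmb4 lay above 99.4% of all genes and Psmd1 above 90.6% (medians over the libraries).

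Within the rings, Psma7 was the highest alpha subunit (522 to 694 TPM) and Psma1 the lowest constitutive alpha subunit (172 to 255 TPM). Among the ATPases, which unfold the substrate, Psmc1 was highest in every library (230 to 297 TPM) and Psmc6 lowest (117 to 149 TPM). The highest non-ATPase subunit was Psmd8 in 3 libraries and the ubiquitin receptor Psmd4 in the Flag and paraquat libraries. Of the chaperones of the base, Psmd5 was highest in every library (43.5 to 75.0 TPM). Of the core chaperones, which help build the rings, Psmg4 was highest in every library (126 to 175 TPM). The activator subunit Psme2 lay at 225 to 286 TPM and its partner Psme1 at 132 to 211 TPM, while the activator Psme4 lay at 17.4 to 27.8 TPM and the inhibitor Psmf1 at 33.2 to 40.2 TPM.

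**Figure D1:**
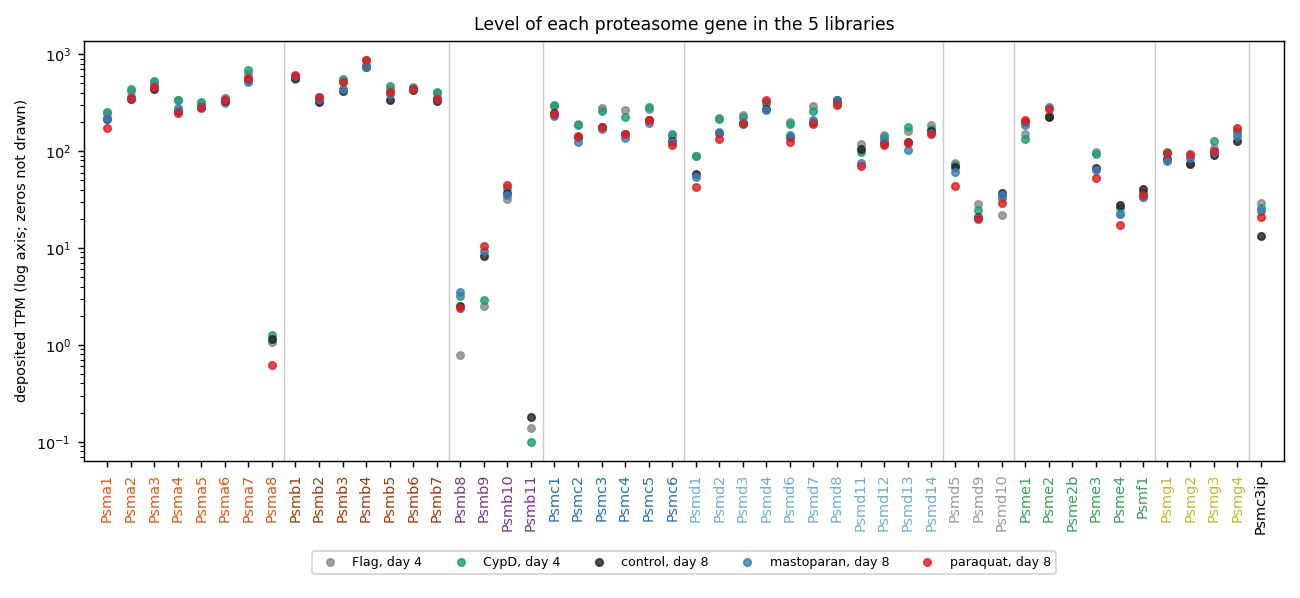
Deposited TPM (log axis) of each of the 50 genes in each of the 5 libraries, with 1 point for each library and the genes ordered by role along the horizontal axis. The core subunits sit highest, with Psmb4 at 736 to 875 TPM, and Psma8, Psmb8, Psmb9 and Psmb11 are the lowest drawn. Psme2b, at 0 in all 5 libraries, has no point.

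The tissue-specific genes Psma8 and Psmb11 were close to the detection limit. Psma8, the alpha subunit of testis, had 3, 5, 4, 0 and 2 counts in the Flag, CypD, control, mastoparan and paraquat libraries. Psmb11, the thymic beta subunit, had 1, 1, 2, 0 and 0 counts in the same order. Psme2b had 0 counts in all 5 libraries, and a count of 0 allows up to 3 counts, between 0.869 and 1.30 CPM in these libraries. Psmb8 had 2 to 10 counts and Psmb9 2 to 14 counts, so folds of these genes are loosely bounded.

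In scaled counts most constitutive subunits were higher in paraquat than in the day-8 control. Ratios are of counts scaled by TMM (trimmed mean of M-values) factors, and log2 ratios carry a pseudocount of 0.5 CPM. The median log2 ratio of the 31 constitutive subunits was 0.29, with 28 above 0, beside a median of -0.03 over all 13651 genes tested, of which 47.4% lay above 0. In the deposited TPM, which also divides by length, the median of the subunits was -0.0054 and that of all genes -0.29, so the sign flips while the distance to all genes (0.31 and 0.28) is nearly kept. Psmb5, the chymotrypsin-like catalytic subunit (ENSMUSG00000022193, chr14:54614119-54618022 on the minus strand of GRCm38), was at 192 CPM in the control, 231 in mastoparan and 284 in paraquat. It was 1.48-fold higher in paraquat than in the control (95% exact interval 1.32 to 1.65). Psmb3, a beta ring subunit, was at 207 CPM in the control, 229 in mastoparan and 315 in paraquat, 1.52-fold higher in paraquat (1.37 to 1.70). Psmb6 and Psmb7, the caspase-like and trypsin-like catalytic subunits, were 1.23-fold (1.10 to 1.37) and 1.29-fold (1.17 to 1.43) higher.

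Past 1.5-fold in scaled counts, 5 of 47 tested genes were higher in paraquat and 0 lower, where 9.24% and 10.6% of all genes were. The 5 were Psmb3, the activator subunit Psme2, the core chaperones Psmg2 and Psmg4, and Psmc3ip. Psmg4 was at 41.8 CPM in the control, 50.2 in mastoparan and 69.8 in paraquat, 1.67-fold higher in paraquat (1.31 to 2.12). Psme2 was at 108, 130.2 and 167 CPM in the same order, 1.55-fold higher (1.34 to 1.80). The counting interval lay above 1 for 29 of the 47 genes and below 1 for 0, beside 11.2% and 9.77% of all genes. Deep genes give narrow intervals. Among the 1615 genes in the length range of the constitutive subunits and at or above their lowest level, the shares were 35.8% higher and 10.2% lower. That set is matched to the 31 constitutive subunits and not to all 47 genes. For these 31 alone the interval lay above 1 for 21 and below 1 for 0.

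The ratio followed transcript length. Over all 13651 genes the log2 ratio of paraquat over control fell by 0.17 for each doubling of length (Pearson r -0.28), from a median of 0.53 in the shortest of 40 length bins to -0.23 in the longest. Over the 47 tested genes of the list, Psmc3ip among them, it fell by 0.24 for each doubling (r -0.67). These are descriptions across genes, which share both libraries and are not replicates. The core subunits have short transcripts, with a median of 949 bases against 1552 for the regulatory subunits. The 3 constitutive subunits below 0 were the regulatory subunits Psmd11 (-0.24), Psmd1 (-0.12) and Psmd14 (-0.06), and Psma1 of the alpha ring was at 0.02. Psme4, the activator with a long transcript, was at -0.20.

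After the median of its length bin was subtracted from each gene, the median of the constitutive subunits was 0.08 (24 of 31 above 0, beside 49.9% of all genes) in place of 0.29. The core subunits went from 0.36 to 0.05, with 9 of 14 above 0 in place of 14. The regulatory subunits went from 0.18 to 0.14, with 15 of 17 above 0 in place of 14. Their unadjusted median was -0.06 in the deposited TPM, beside -0.29 over all genes. With 20 bins built only from genes of like level the core median was -0.02, so its direction is not kept. The 6 ATPases lay above 0 in scaled counts both before (median 0.28) and after (0.17) the adjustment, from 0.10 for Psmc6 to 0.33 for Psmc2 after it, but in the deposited TPM only Psmc2 was higher in paraquat (144 against 139 TPM). The other 5 were level or lower there, as for Psmc1 (242 against 245 TPM) and Psmc6 (117 against 126 TPM). These TPM values stand beside the all-gene median of -0.29, so a level TPM lies above that of most genes. The regulatory subunit Psmd3 was at 0.34 and the chaperone Psmg2 at 0.38 after it. No member stayed past 1.5-fold after the adjustment, where 6.56% of all genes were higher and 8.47% lower. Whether RNA quality differed between the libraries was not tested.

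**Figure D2:**
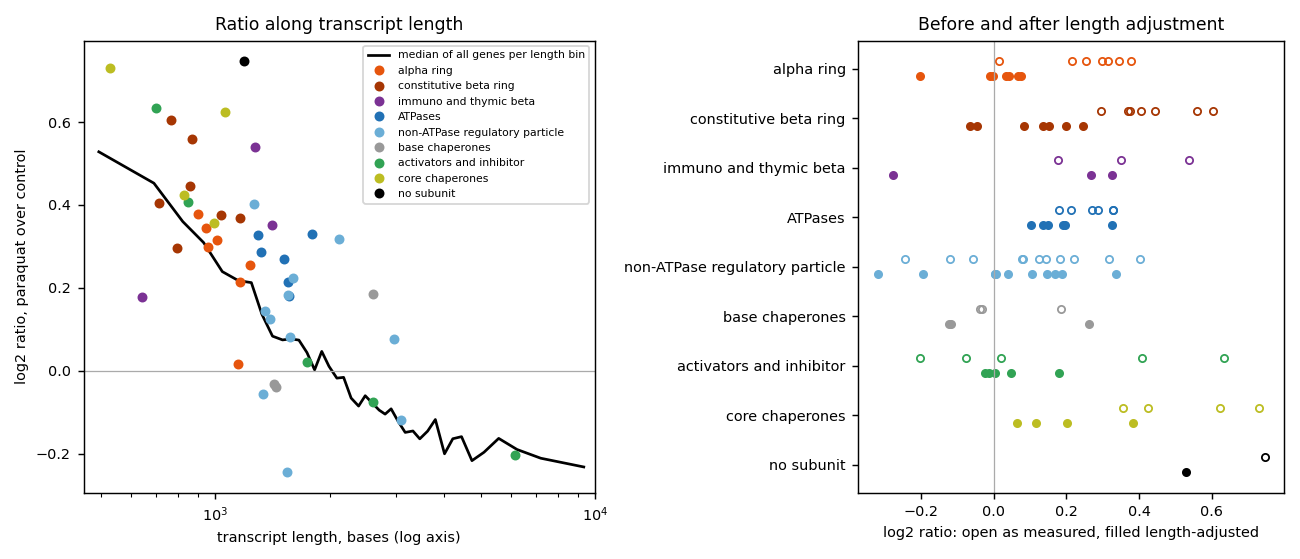
Left, log2 ratio of paraquat over control against transcript length (log axis, bases) for the 47 tested genes, 1 point each, with the median of all genes per length bin as a line; right, the same ratios by role before (open) and after (filled) the bin median is subtracted. Short genes such as the core subunits lie highest, and the core median moves from 0.36 to 0.05.

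Mastoparan against the same control gave smaller differences. The 2 comparisons share that control library, so their values stand side by side and are not independent. The median log2 ratio of the constitutive subunits was 0.09 (23 of 31 above 0), beside 0.01 over all genes, of which 50.9% lay above 0. After length adjustment it was 0.07 (22 of 31 above 0), beside 49.9% of all genes above 0. The core subunits were at 0.14 with 14 of 14 above 0, from 0.01 for Psma7 to 0.26 for Psmb5. The regulatory subunits were at 0.01 with 9 of 17 above 0, from -0.22 for Psmd13 to 0.15 for Psmd7. In the deposited TPM the core median stayed above 0 (0.09) and the regulatory median lay at -0.05, beside -0.04 over all genes. After length adjustment 13 of 14 core subunits lay above 0, with a median of 0.09.

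Psmb5 was 1.2-fold higher in mastoparan than in the control (1.07 to 1.34), and Psmb4, with 328 CPM in the control, 369 in mastoparan and 435 in paraquat, was 1.12-fold higher (1.03 to 1.23). Psmd13, a lid subunit of the regulatory particle, was at 137 CPM in the control, 118 in mastoparan and 145 in paraquat, 1.17-fold lower in mastoparan (1.01 to 1.35). Past 1.5-fold, 2 of 47 were higher and 0 lower, beside 6.23% and 7.04% of all genes. These were Psmb8, on 10 against 7 counts, and Psmc3ip, on 59 against 36 counts. After length adjustment 1 was higher (Psmc3ip) and 0 lower, beside 5% and 5.98% of all genes. The interval lay above 1 for 7 genes (Psma3, Psmb1, Psmb4, Psmb5, Psmb7, Psme2 and Psmc3ip) and below 1 for Psmd13 alone, where 4.01% and 3.26% of all genes and 11.3% and 2.91% of genes of like length and level were called. That set is matched to the 31 constitutive subunits and not to all 47 genes. Of these 31 alone, 5 were called higher and 1 lower, which is not far above its shares.

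Set directly against paraquat, mastoparan had lower levels in 28 of 31 constitutive subunits, with a median log2 ratio of -0.20 beside 0.02 over all genes. The 3 subunits above 0 compare with 52.1% of all genes. In the deposited TPM that median was 0.04, beside 0.23 over all genes, so its sign flips. After length adjustment it was -0.02, with 12 of 31 above 0, beside 49.9% of all genes. Psmb10, an immunoproteasome subunit, was at 30.9 CPM in mastoparan and 45.9 in paraquat, 1.49-fold lower (1.11 to 1.996), and Psme1 was at 98.3 and 145 CPM, 1.48-fold lower (1.26 to 1.74). Psmc2 had the lowest length-adjusted ratio of all members at -0.44. None of the 47 was past 1.5-fold, where 10.7% of all genes were higher and 8.78% lower, and 0 were after length adjustment, where 8.18% were higher and 7.01% lower. The interval lay below 1 for 25 and above 1 for 0, beside 10.3% and 8.89% of all genes, or 31.5% and 12% of genes of like length and level. For the 31 constitutive subunits alone, to which the latter set is matched, it lay below 1 for 19 and above 1 for 0.

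**Figure D3:**
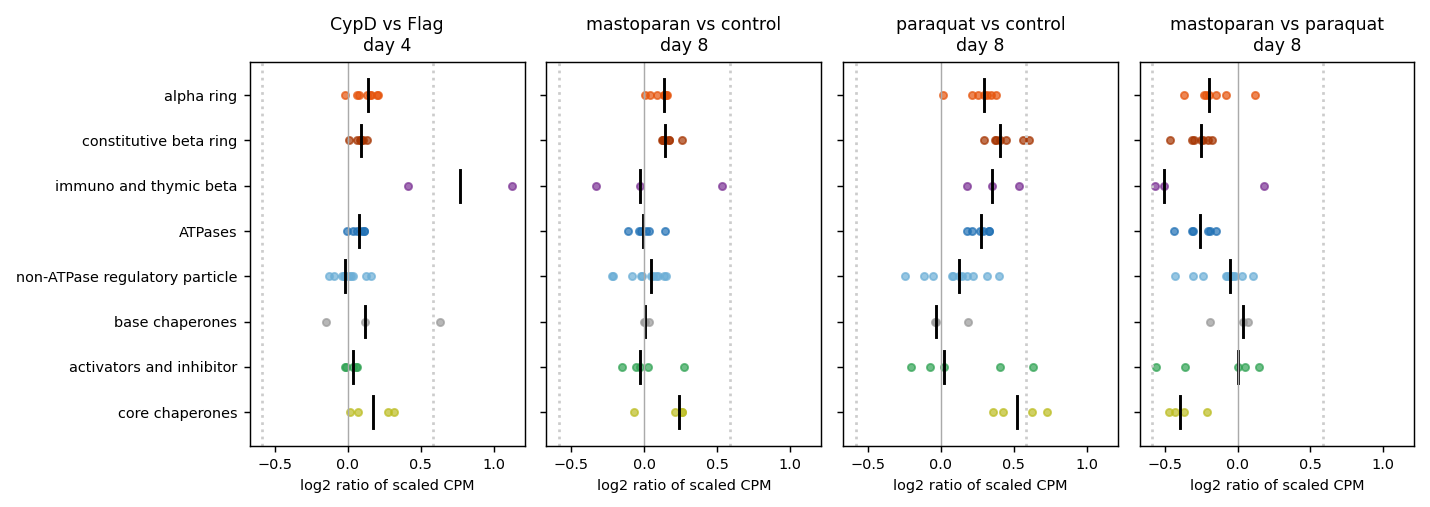
Log2 ratios of scaled CPM for the tested genes by role in the 4 comparisons within a day, with 1 point for each gene, a black bar at the median of the role and dotted lines at 1.5-fold. The 14 core subunits lie above 0 in paraquat over control (0.02 to 0.60) and in mastoparan over control (0.01 to 0.26).

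CypD against Flag at day 4 left the constitutive subunits close together. Their median log2 ratio was 0.06 (23 of 31 above 0), beside -0.02 over all 13244 genes tested, of which 47% lay above 0. After length adjustment it was 0.02 (18 of 31 above 0), beside 49.9% of all genes above 0. The core subunits were at 0.09 with 13 of 14 above 0, and at 0.02 with 8 of 14 above 0 after length adjustment. The regulatory subunits were at 0.02 with 10 of 17 above 0, and at -0.07 in the deposited TPM, beside -0.06 over all genes. The 31 log2 ratios spread with an SD of 0.078, from -0.13 for Psmd7 to 0.20 for Psma7, while 1368 genes of like length and level spread with an SD of 0.157. The SDs are across genes.

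Psmd10, known as gankyrin, a chaperone of the base, was at 20.1 CPM in Flag and 31.6 in CypD, 1.57-fold higher in CypD (1.11 to 2.23), on 51 and 109 counts. In the day-8 libraries it was at 34.2 to 35.1 CPM. Psma7 was at 354.4 CPM in Flag and 408 in CypD, 1.15-fold higher (1.06 to 1.25), and the core chaperone Psmg3 was 1.25-fold higher (1.01 to 1.55). Past 1.5-fold, 2 of 47 were higher (Psmd10, and Psmb8 on 8 against 2 counts) and 0 lower, beside 6.01% and 6.83% of all genes. After length adjustment the same 2 were higher and 0 lower, beside 5.43% and 5.44%. The interval lay above 1 for 5 (Psma5, Psma6, Psma7, Psmd10 and Psmg3) and below 1 for 0, beside 4.13% and 4.19% of all genes, or 10.7% and 4.82% of genes of like length and level. For the 31 constitutive subunits alone, to which the latter set is matched, it lay above 1 for 3 and below 1 for 0. The interval spanned 1 for all 17 regulatory subunits, which does not show that they were alike.

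Between days, 11 of the 17 regulatory subunits were lower at day 8, while 11 of the 14 core subunits overlapped. The 3 day-8 libraries and the 2 day-4 libraries carry different treatments and transgenes, so day cannot be told apart from these, and in bulk RNA fewer cells of a type cannot be told apart from less RNA per cell. All 3 day-8 libraries lay below both day-4 libraries for 16 of 47 genes and above them for 7, beside 28.1% and 28.5% of all 13584 genes. Among the regulatory subunits 11 of 17 were lower and 1 (Psmd8) higher, with 5 overlapping. Among the core subunits 2 of 14 were lower (Psma1, Psma4), 1 higher (Psmb1) and 11 overlapping. The median difference, day 8 minus day 4 in log2 CPM, was -0.32 for the regulatory and -0.09 for the core subunits.

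Psmd1 (ENSMUSG00000026229, chr1:86064387-86139151, plus strand) was at 183 CPM in Flag and 186 in CypD, against 120.0 in the control, 119 in mastoparan and 110.5 in paraquat. Its mean was 1.58-fold lower at day 8 and the days did not overlap. Psmc4 (ENSMUSG00000030603, chr7:28041707-28050101, minus strand), an ATPase, was at 209 and 208 CPM at day 4 against 120.3, 133 and 151, a mean 1.55-fold lower. The ATPase Psmc3 was at 264 and 281 CPM against 189, 190.2 and 219, and Psmd2, a large subunit that docks ubiquitin shuttles, at 431 and 427 against 315, 327 and 332. In each of these 4 genes both day-4 libraries lay above all 3 day-8 libraries. Psme3, a nuclear activator, was at 170 and 169 CPM against 119, 116 and 113, a mean 1.46-fold lower.

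The subunits of the activator that pairs with the immunoproteasome were higher at day 8. Psme1 was at 81.3 and 80.2 CPM at day 4 against 109, 98.3 and 145 at day 8, a mean 1.46-fold higher. Psme2 was at 91.9 and 94.4 CPM against 108, 130.2 and 167, a mean 1.45-fold higher. Psmd8 was at 272 and 297 CPM against 316, 326 and 344, the only regulatory subunit higher at day 8. In the deposited TPM, Psme1 kept the gap (132 to 150 against 187 to 211), while the days overlapped for Psme2 and Psmd8. Epithelial markers differed with day as well, from a summed 175 to 188 CPM at day 4 to 475 to 552 CPM at day 8, with all 6 genes detected on both days. Their part in these differences was not tested.

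The count changed with the length adjustment, the scale and the paraquat library. After length adjustment 32 of 47 genes were lower and 6 higher, beside 29.1% in each direction for all genes, and 13 of the 14 core subunits were then lower. With bins from genes of like level, 26 were lower and 9 higher, beside 24.0% and 33.8%. Without the paraquat library 29 were lower and 8 higher, with 25 of the 31 constitutive subunits lower, beside 33.1% and 34.3% of all genes, and 10 of the 14 core subunits were lower. In the deposited TPM 28 were lower and 3 higher, with 9 core and 14 regulatory subunits lower, beside 32.9% and 20.3% of all genes. The contrast between core and regulatory subunits thus rests on the scaled counts with all 5 libraries.

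**Figure D4:**
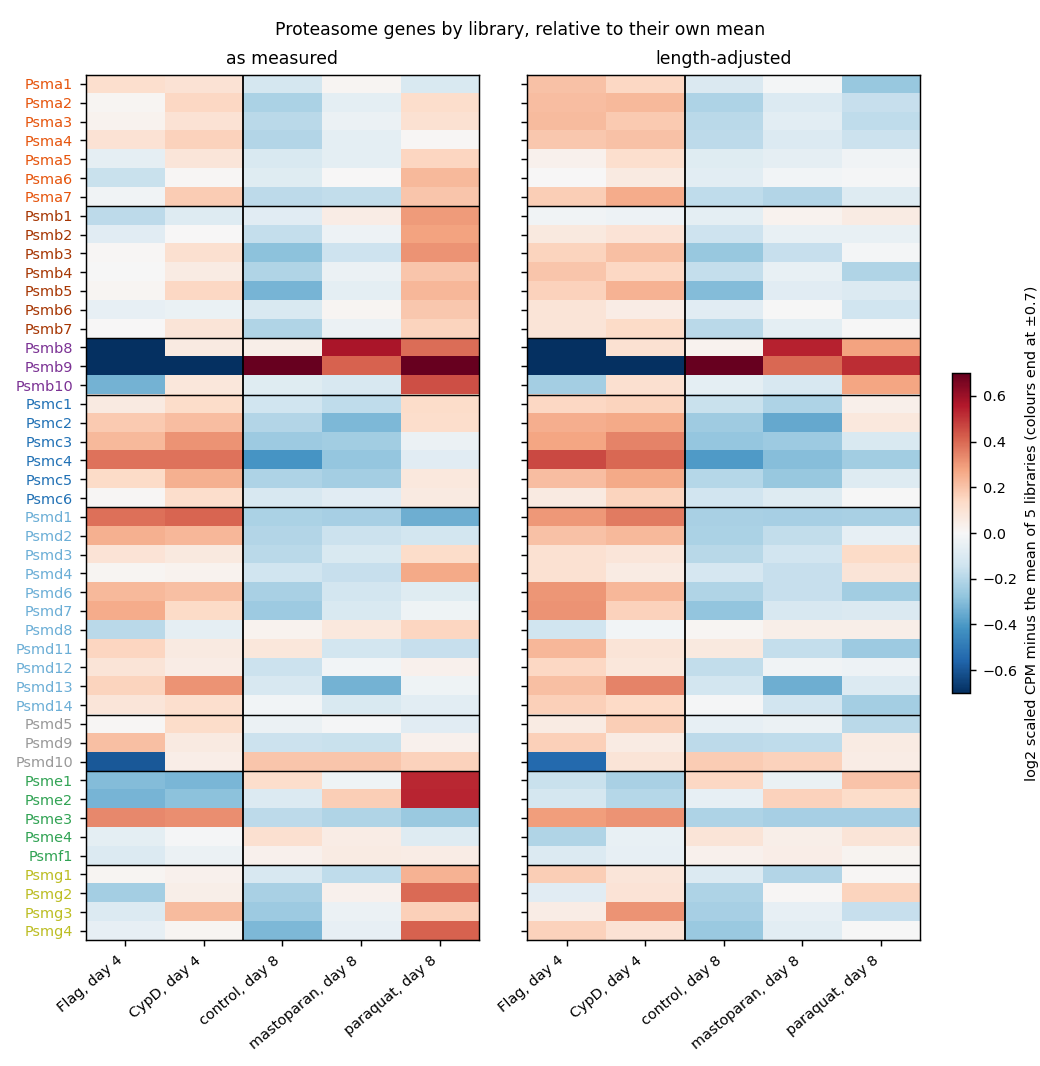
Heat map of log2 scaled CPM minus the mean of the 5 libraries for each tested gene except Psmc3ip, as measured (left) and length-adjusted (right), with a vertical line between the day-4 and day-8 libraries and colours ending at ±0.7. Psmd1, Psmc4 and Psme3 are red (high) at day 4 and blue (low) at day 8, and Psmb9, Psme1 and Psme2 have their lowest values at day 4.

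The immunoproteasome catalytic subunits made up a small share of each catalytic pair. Psmb9 (ENSMUSG00000096727, chr17:34181987-34187764, minus strand), which replaces Psmb6, was at 0.789 CPM in Flag and 1.16 in CypD, against 4.54 in the control, 3.51 in mastoparan and 5.20 in paraquat, on 2, 4, 14, 10 and 12 counts. The days did not overlap. Its share of the pair in deposited TPM was 0.534% in Flag, 0.635% in CypD, 1.86% in the control, 2.03% in mastoparan and 2.34% in paraquat. By counts the share was 0.340% (95% exact interval 0.0411 to 1.22) in Flag and 1.99% (1.09 to 3.31) in the control, so these intervals overlap.

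Psmb8 (chr17:34197721-34201454, plus strand), which replaces Psmb5, had a TPM share of 0.178% in Flag, 0.670% in CypD, 0.743% in the control, 0.895% in mastoparan and 0.589% in paraquat, and the days overlapped. Psmb10 (chr8:105935735-105938444, minus strand), which replaces Psmb7, had shares of 7.55%, 9.31%, 10.1%, 8.97% and 11.3% in the same order, and the days overlapped. Psmb10 was the most abundant of the 3 in every library, at 32.3 to 44.3 TPM. Blood cell markers summed to 6.71 to 8.98 CPM at day 4 and to 15.8 to 19.1 CPM at day 8. Most of this was the macrophage marker Cd68, at 5.13 CPM in Flag and 7.53 in CypD against 17.2 in the control, 13.7 in mastoparan and 13.4 in paraquat. Csf1r, another macrophage marker, had 0 counts in both day-4 libraries and 4, 3 and 10 at day 8. Cd68 and Csf1r were thus higher at day 8, as Psmb9 was. Lyz2, another marker of macrophages on this list, went the other way, with 2 counts in Flag and 4 in CypD against 0 in the control, 1 in mastoparan and 0 in paraquat. The part of blood cells in the difference of Psmb9 was not tested. Of these 9 markers 4 to 6 had 0 counts in each library, and the defining genes Adgre1 (macrophages) and Cd3e (T cells) had 0 in all 5.

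**Figure D5:**
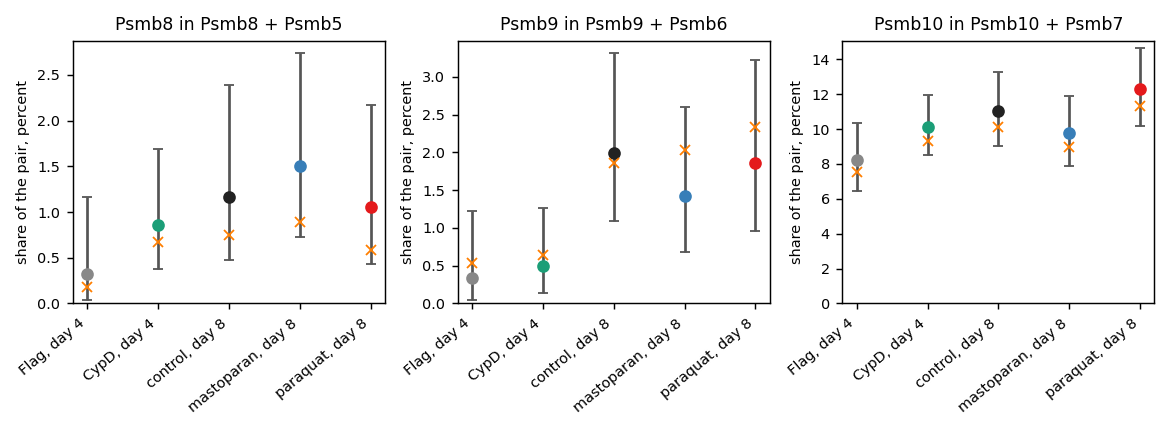
Share of each immunoproteasome subunit in its catalytic pair, in percent, for the 5 libraries. Circles are shares of counts with 95% exact intervals for counting error and crosses are shares of deposited TPM; Psmb9 stands at 0.534 to 0.635% of TPM at day 4 and at 1.86 to 2.34% at day 8, while Psmb10 stays between 7.55 and 11.3%.

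Among genes of antigen processing and interferon response, 6 of the 11 tested were higher at day 8 in all 3 libraries and 1 was lower, beside 28.5% and 28.1% of all genes. After length adjustment 5 were higher, since the days then overlapped for Irf1. H2-K1, a class I antigen-presenting molecule, was at 89.6 CPM in Flag and 94.98 in CypD against 196, 198 and 234 in the control, mastoparan and paraquat. Tap2, a peptide transporter whose gene lies beside Psmb8 and Psmb9, was at 11.8 and 15.3 CPM against 35.03, 25.3 and 26.4. Tapbp, Tap1, H2-D1 and the transcription factor Irf1 were also higher in scaled counts, though in the deposited TPM the days overlapped for Tap1, H2-D1 and Irf1, and B2m, the light chain of class I molecules, was lower (187 and 196 against 146, 146 and 169 CPM). The interferon-induced genes Isg15 and Irf7 stayed at or below 5.84 CPM in every library.

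Most genes that deliver substrates were lower at day 8. Of 9 shuttles and unfoldase genes 8 were lower in all 3 day-8 libraries and 0 higher, beside 28.1% and 28.5% of all genes. Vcp, the unfoldase that extracts ubiquitinated proteins, was at 874 and 856 CPM at day 4 against 635, 648 and 640.3 at day 8. The shuttle Rad23b was at 251 and 222 CPM against 159, 175 and 149.9, and Ubqln2 and Nploc4 were lower by differences in mean log2 CPM of -0.79 and -0.72. Of the 12 partners of the proteasome with other symbols, 4 were lower (33.3%) and 0 higher, and the lower share is close to the 28.1% of all genes. After length adjustment 8 of the 12 were lower and 0 higher, beside 29.1% of all genes in each direction. Among the 4 lower before adjustment were the ubiquitin receptor Adrm1 (170.5 and 174 against 108, 112 and 124 CPM) and the stress-induced Zfand2a (22.1 and 14.5 against 7.78, 6.67 and 6.93 CPM). Zfand2a was also 1.53-fold lower in CypD than in Flag (1.02 to 2.28).

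Of 11 regulators of subunit transcription, 4 were lower at day 8 (Nfyc, Ngly1, Ddi2 and Mafg) and 1 higher. The lower share, 36.4%, is near the 28.1% of all genes, and the higher share, 9.09%, is below the 28.5% of all genes. The higher one was Nfe2l1, which encodes NRF1, at 171 and 163 CPM at day 4 against 195, 211 and 175 at day 8. In the deposited TPM the days overlapped for Nfe2l1, Ddi2 and Mafg. Ddi2, the protease that cuts NRF1, was at 44.2 and 50.1 CPM against 39.6, 36.8 and 32.1. The ratio of Nfe2l1 in paraquat over control was 0.899, and its interval (0.791 to 1.02) spanned 1. Mafk, a small partner of NRF1, was 1.47-fold lower in paraquat than in the control (1.11 to 1.96) and 1.42-fold lower in mastoparan (1.09 to 1.85).

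In paraquat against control, 4 of the 12 partners had an interval above 1, beside 11.2% of all genes. The share of 35.8% among genes of like length and level is matched to the constitutive subunits and not to these partners. Ecpas and Ube3c are longer than those genes, and Fbxo7 and Zfand2a lie below their level. Sem1, a small regulatory particle subunit, was at 346 CPM in the control, 366 in mastoparan and 538 in paraquat, 1.55-fold higher in paraquat (1.43 to 1.69), with a length-adjusted log2 ratio of 0.56. Txnl1, a thioredoxin-like protein that binds the regulatory particle, was at 164, 171 and 219 CPM, 1.34-fold higher (1.18 to 1.52), with 0.50 after adjustment. Pomp, the maturation factor of the core, was 1.34-fold higher (1.18 to 1.53), with -0.03 after adjustment.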

How the data were processed

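Per the labels' protocols, Trizol was used for RNA and a TruSeq kit for the libraries. The submitters' processing notes name Bowtie2 2.2.5 and mm10. Which program counted the reads, on which annotation, is not given in the sources used here. Each gene has an expected count, a TPM and lengths per the file headers, and the deposited FPKM was not used. Each library's deposited TPM values added up to 1000000.

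Gene IDs were matched to GENCODE M21 (GRCm38), where 28756 of 29267 had a symbol. Expected counts were rounded and scaled by TMM factors (edgeR 4.0.16, R 4.3.3) of 1.02 (control), 1.01 (mastoparan), 0.951 (paraquat), 1.01 (Flag) and 1.01 (CypD). A gene was tested where its mean reached 1 CPM in that day's libraries (all 5 libraries between days). The pseudocount of log2 ratios was 0.5 CPM. Folds carry none and have exact 95% intervals by Clopper-Pearson. PCR copies are not independent molecules, so counting error is all that intervals and floors cover. The length adjustment subtracts the median log2 ratio of each of 40 equal bins of transcript length. Genes of like length and level lie within the length range of the constitutive subunits and at or above their lowest mean CPM. With 1 library per group no test was possible, so differences past 1.5-fold, or with an interval that excludes 1, were counted beside the percent of all genes.

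Catalytic and tissue-specific subunits are always named, with the highest and lowest ratio and TPM of each role and up to 4 genes of each other list. Some genes of these lists are not reported here. Members and lists were chosen with earlier results of these data known. Sharing was counted in windows of 49 bases over 82533 of 84205 transcripts. Alternatives were library totals, size factors of DESeq2 1.42.0, TPM, no filter or 5 CPM, pseudocounts of 0.1 and 2 CPM, leaving out genes that share at least 20% of windows, genes within 10% of the same length, and leaving out a library. Bins of like level and the length adjustment between days were added after seeing the data. The code was tested on simulated data. Python 3.11.15 was used with numpy 2.4.6, scipy 1.17.1, pandas 2.3.3 and matplotlib 3.10.9.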

Additional observations from a re-analysis of the deposited data

How the results depend on the processing

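No paired analysis was possible because each group has 1 library and the labels give no replicate numbers. For the constitutive subunits, the median log2 ratio in the deposited TPM was 0.016 for CypD over Flag, 0.0079 for mastoparan over control, and of the other sign for paraquat over control (-0.0054) and mastoparan over paraquat (0.043). TPM also reversed the regulatory median of paraquat over control (-0.065) and both the core (0.036) and regulatory (0.060) medians of mastoparan over paraquat. The TPM medians of all genes were -0.062 (CypD over Flag), -0.044 (mastoparan over control), -0.29 (paraquat over control) and 0.23 (mastoparan over paraquat). With library totals the constitutive median was 0.18 for paraquat over control and -0.12 for mastoparan over paraquat. The length-adjusted median for mastoparan over control was 0.042 in TPM and 0.043 with 20 bins of like level, and with those bins that of paraquat over control was 0.050 and its core median -0.015. Without a filter, genes with 0 counts set the bin medians to 0, and the length-adjusted medians equalled the unadjusted ones, at 0.064 (CypD), 0.29 (paraquat) and -0.20 (mastoparan over paraquat). Members past 1.5-fold numbered 1 with a minimum of 5 CPM for CypD over Flag. For mastoparan over control they numbered 1 with TPM, with a minimum of 5 CPM or after length adjustment, and 4 without a filter. For paraquat over control they numbered 2 with library totals and 0 after length adjustment, and for mastoparan over paraquat 1 with DESeq2 size factors or without a filter. Except after length adjustment, no share of all genes was computed for these counts, so they describe the members only. Members that did not overlap between days numbered 23, and 29 to 37 with the CypD or the paraquat library left out. They numbered 38 after length adjustment, 35 with bins of like level, and 42 with length adjustment and without paraquat. Of all genes, 28.5% were higher and 28.1% lower beside the 23, and 29.1% each way beside the 38. Leaving out a library can only raise such counts, for any gene, so those counts do not compare with the 23. Shares of all genes beside the 42, and without the CypD library, are not reported here. A median counted as the same within the counting interval of the summed counts, placed around the main median. A count of members did so within 1.5-fold of the main count, and a share where its TPM value lay in the interval of the counts. By these rules, of the values that answer a comparison 106 were the same, 23 moved and 2 reversed. Of the others 123 were the same, 17 moved and 4 reversed. The cause of these shifts was not tested, except where the construction shows it.

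Depth limits the low genes: 3 counts stand for 0.869 to 1.30 CPM. Psmb11 and Psme2b stayed below 3 counts in every library, while Psma8 had 4 in the control and 5 in CypD. Folds of Psmb8 and Psmb9 rest on at most 14 counts.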

Other observations

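Sequence shared with other genes was limited to few members. Psma5 of the alpha ring shares 35.1% of its windows of 49 bases with other transcripts and Psme2 shares 28.5%, and with Psme2b (69.1%) these were the members above 20%. The processed copy Psme2b of Psme2 had 0 counts in all 5 libraries. Psmd2 shares 16.4% with the pseudogene Gm5422, which had at most 2 counts in any library.

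The constitutive subunits spread less than genes of like length and level in 3 of the 4 comparisons. The SD of the log2 ratio was 0.078 against 0.157 for CypD over Flag, 0.184 against 0.255 for paraquat over control and 0.150 against 0.239 for mastoparan over paraquat. For mastoparan over control it was 0.112 against 0.114. These SDs run across genes of the same libraries and were not tested.

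Psmc3ip, the recombination factor that shares only the start of its symbol with the subunits, was at 20.9 CPM in Flag, 19.4 in CypD, 11.7 in the day-8 control, 20.7 in mastoparan and 19.9 in paraquat. The control stood below the other 4 libraries, which lay close together. Its promoter held 3 Ets-type motifs within 77 bases of the start.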
